A study of Arabidopsis thaliana with 12 samples.

Results

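AT1G10340 and AT2G24600 are ankyrin repeat genes of Arabidopsis thaliana, and each has 1 probe set on the array that the platform annotation assigns to it alone. These 2 of 22810 probe sets, 264434_at for AT1G10340 and 263800_at for AT2G24600, were followed over 12 Affymetrix ATH1 arrays hybridised with total RNA of whole seedlings. Both were chosen by their measured log2 differences between the line 46T and wild type (WT) on these same arrays, where they were higher in 46T, so the line differences below describe that choice and carry no test. There were 4 groups of 3 arrays: 46T dehydrated, WT dehydrated, 46T control and WT control. 46T overexpresses the transcription factor WRKY46, WT is the accession Col-0, and all seedlings were 1 week old and grown under 16 h of light. For dehydration, seedlings were left for 1 h on filter paper in dim light, at a humidity of 60% and 22 °C, and control seedlings were not treated. The sources used here do not name the transgene's promoter, 46T stands as a single line, and the probe set of WRKY46 was not analysed here, so the overexpression was not checked. RefSeq's gene table for TAIR10.1 places AT1G10340 on chromosome 1 with 2 transcripts and AT2G24600 on chromosome 2 with 4 transcripts. A probe set gives 1 value for all transcripts it detects.

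Ankyrin repeats are short helical units that stack into a surface through which a protein binds other proteins. In plants, many ankyrin repeat proteins also carry membrane spans near their end. In Arabidopsis this group includes ACD6, a regulator of salicylic acid-dependent defence and cell death, and ITN1, which is known for an effect on salt tolerance. WRKY proteins, the family of WRKY46, are plant transcription factors that bind a short DNA element called the W-box and take part in defence and stress responses.

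The values are log2 MAS5 signals, in which 1 unit is a 2-fold difference. On all 12 arrays both genes lay above the 40th percentile of the array's probe sets, which served as the limit for testing, so neither entered the tests through its high groups alone. The spread of the 3 arrays about their group mean was 0.30 for AT1G10340 and 0.18 for AT2G24600 (pooled SD, log2), against a median of 0.26 over the 14495 tested probe sets. WT control replicate 1 stood apart from the other arrays, at 72.7 on the second principal component (27.2% of the variance), where the other 11 arrays lay between -25.0 and 29.3. The log2 differences of the pair that involve this array are given with and without it. Among markers of seedling tissue, RCA, the Rubisco activase gene of green tissue, was at 14.7 to 15.2 and PYK10, a root beta-glucosidase gene, at 13.7 to 14.3. The other root genes to which the annotation assigns their own probe set were lower. EXPA7 was at 3.38 to 5.97 and too dim to test, EXPA18 at 6.21 to 7.17 and AT5G17820 at 8.25 to 9.71. Both pollen genes that have such a probe set were at or below 4.79 on every array. No line difference passed the test for RCA, PYK10 or the other 2 tested root genes. Few probe sets passed it at all, 0.152% of those tested in dehydrated and 0.359% in control seedlings.

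AT1G10340 was higher in 46T in both conditions. In dehydrated seedlings its log2 signal was 9.32, 9.61 and 9.45 in 46T, against 8.00, 7.54 and 7.33 in WT. In control seedlings it was 8.44, 8.84 and 8.80 in 46T, against 6.59, 7.31 and 7.35 in WT. Every 46T array exceeded every WT array of the same condition, and the lowest 46T control array also exceeded the highest WT dehydrated array. On the linear scale the gene averaged 708 ± 71.3 in dehydrated 46T and 201 ± 49.5 in dehydrated WT (SD, n = 3 each). In control seedlings it averaged 417 ± 60.3 in 46T and 140 ± 37.3 in WT (SD, n = 3 each). Whole seedlings were measured, so more RNA per cell and more cells that express a gene cannot be told apart.

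AT2G24600 differed between the lines mainly after dehydration. In dehydrated seedlings its log2 signal was 12.11, 11.79 and 11.93 in 46T, against 10.74, 10.57 and 10.81 in WT. In control seedlings it was 8.30, 8.47 and 8.22 in 46T, against 7.76, 8.00 and 8.31 in WT. The dehydrated arrays of the lines did not overlap, whereas WT control replicate 3 reached into the range of the 46T control arrays. On the linear scale the gene averaged 3955 ± 452 in dehydrated 46T and 1677 ± 140 in dehydrated WT (SD, n = 3 each). In control seedlings it averaged 323 ± 28.3 in 46T and 263 ± 51.1 in WT (SD, n = 3 each).

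**Figure D1:**
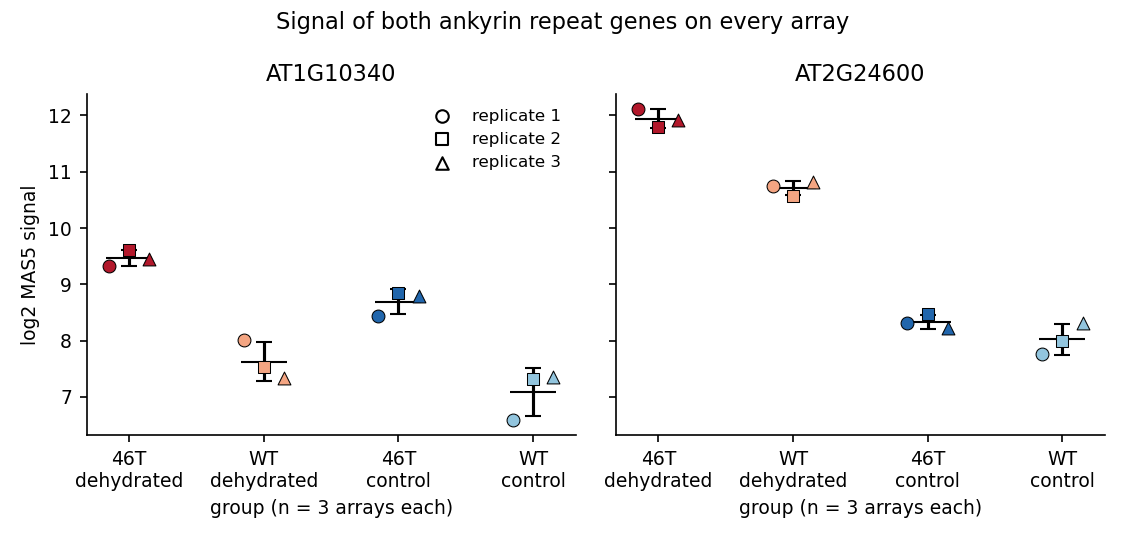
Log2 MAS5 signal of AT1G10340 (left) and AT2G24600 (right) on each of the 12 arrays, by group, with the marker shape giving the replicate number, the horizontal line the group mean and the bar 1 SD. AT1G10340 separates by line in both conditions, while AT2G24600 separates by treatment first, with 46T at 11.94 and WT at 10.71 after dehydration; heights are not comparable between the 2 probe sets.

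Written as differences, AT1G10340 was 1.84 ± 0.23 higher in 46T than in WT after dehydration (log2, SE; 3.58-fold, 95% interval 2.54 to 5.04) and 1.61 ± 0.23 higher in control seedlings (3.05-fold, 95% interval 2.16 to 4.29). Without WT control replicate 1, its lowest array, the control difference was 1.36 ± 0.20. AT2G24600 was 1.24 ± 0.16 higher in 46T after dehydration (2.35-fold, 95% interval 1.85 to 3.00). Its control difference was 0.31 ± 0.16 (1.24-fold, 95% interval 0.97 to 1.58), or 0.18 ± 0.15 without WT control replicate 1, and both of these intervals include no difference. In the fit over all probe sets, both genes were among the 22 called after dehydration (0.152% of those tested), and AT1G10340 alone of the pair was among the 52 called in control seedlings (0.359%). A probe set was called where limma's p, adjusted over all tested probe sets by the Benjamini-Hochberg method, was below 0.05. These counts follow from how the genes were picked. Groups that did not overlap and were higher in 46T were common, at 14.6% of tested probe sets in dehydrated and 8.85% in control seedlings.

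The line differences of the pair ranked near the top of the 14495 tested probe sets after dehydration, where AT1G10340 was number 32 and AT2G24600 number 99 from the highest. In control seedlings AT1G10340 was number 91 and AT2G24600 number 3526. The median line difference of all tested probe sets was 0.03 after dehydration and 0.07 in control seedlings.

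**Figure D2:**
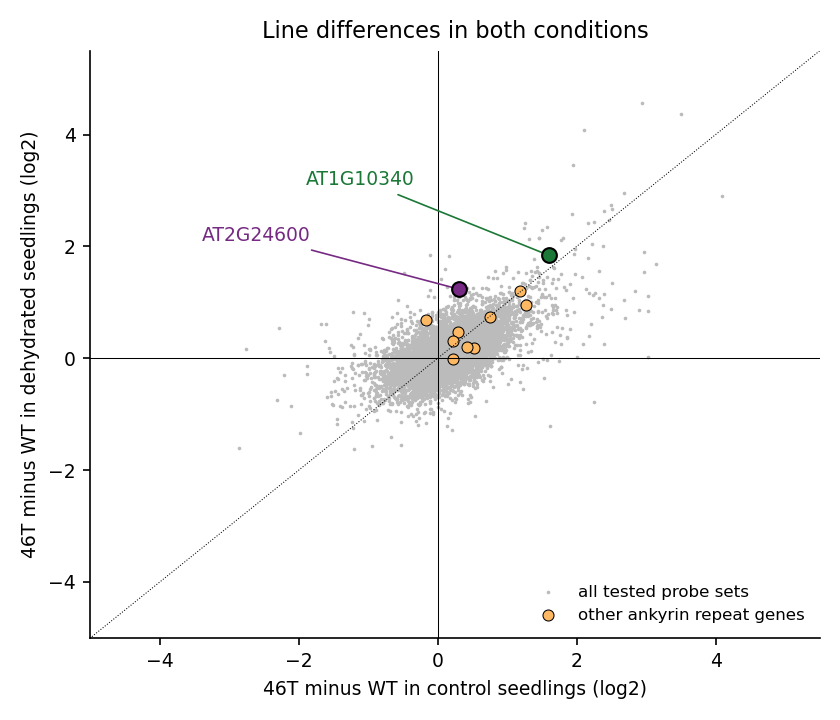
Log2 difference of 46T minus WT in dehydrated seedlings (vertical) against that in control seedlings (horizontal) for the tested probe sets, each a grey point; 3 probe sets lie outside the plotted range, and the dotted line marks equal differences. AT1G10340 (1.61 in control, 1.84 in dehydrated seedlings) lies near the dotted line and AT2G24600 (0.31 and 1.24) above it, with the 9 other tested ankyrin repeat genes in orange.

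The control RNAs with a poly-A tail that are added to a sample before labelling differed by line too, with a mean of 7.85 ± 0.08 in 46T and 8.36 ± 0.33 in WT (log2, SD, n = 6 arrays each). With their level in the model, AT1G10340 was 1.63 higher in 46T in dehydrated and 1.40 higher in control seedlings. AT2G24600 was then 1.20 and 0.27 higher, in the same order. The difference between 3' and 5' probe sets of actin, a sign of RNA integrity, lay between 2.07 and 2.15 on 46T arrays and between 2.05 and 2.30 on WT arrays. For GAPDH this difference was much smaller, between 0.05 and 0.12 on 46T arrays and between -0.03 and 0.20 on WT arrays.

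The response to dehydration was tested as the difference between dehydrated and control seedlings averaged over both lines. With equal groups, this contrast is orthogonal to both line contrasts. It uses the same estimate of each probe set's spread as they do, so its p-values are not fully independent of the choice. The dehydration response of each gene was also known when the pair was put together, and the p-values below assume that it was not used to pick them. Both genes rose: AT2G24600 by 3.15 ± 0.11 (SE; 8.87-fold, 95% interval 7.47 to 10.52; limma adjusted p = 2.8e-10) and AT1G10340 by 0.66 ± 0.16 (1.57-fold, 95% interval 1.24 to 2.01; limma adjusted p = 0.00947). Changes were frequent, with 12.2% of tested probe sets called higher and 12.4% called lower, and 68 probe sets rose by more than AT2G24600 while 1191 rose by more than AT1G10340. AT1G10340 kept its call in 22 of 22 alternative fits, with adjusted p between 0.00124 and 0.0292, and so did AT2G24600. Without WT control replicate 1, AT1G10340 was 0.53 ± 0.13 and AT2G24600 3.08 ± 0.10 higher after dehydration.

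Within each line, the response of AT2G24600 was far larger than the spread of the arrays. It was 3.61 ± 0.16 higher in dehydrated than in control 46T (SE; 12.2-fold) and 2.68 ± 0.16 higher in dehydrated than in control WT (6.43-fold), or 2.55 ± 0.15 without WT control replicate 1. All 3 dehydrated arrays exceeded all 3 control arrays in both lines, as they did for 15.6% of tested probe sets in 46T and 13.4% in WT. In linear signal the dehydrated seedlings exceeded the controls by 3632 in 46T and by 1414 in WT.

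The response of AT1G10340 was smaller in both lines. It was 0.77 ± 0.23 higher in dehydrated than in control 46T (SE; 1.71-fold, 95% interval 1.21 to 2.40), with no overlap of the arrays. In WT it was 0.54 ± 0.23 higher (1.45-fold, 95% interval 1.03 to 2.05), and the ranges overlapped, since WT dehydrated replicate 3 at 7.33 lay just below WT control replicate 3 at 7.35. Without WT control replicate 1 the WT difference was 0.29 ± 0.20 (95% interval -0.14 to 0.72), and without WT dehydrated replicate 1 it was 0.35. The responses within a line share arrays with the line differences and are given without a test.

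**Figure D3:**
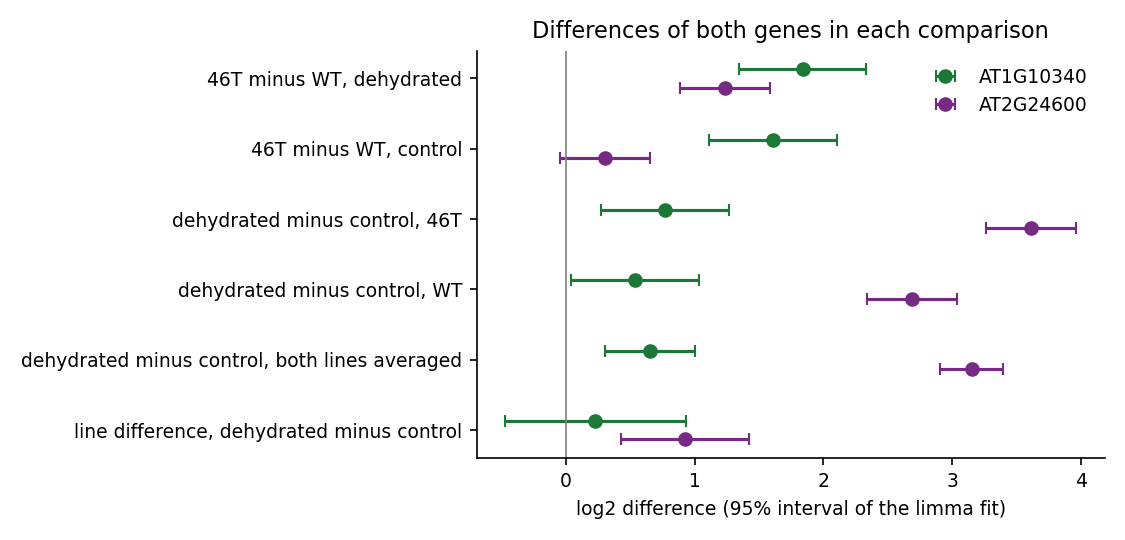
Log2 differences of AT1G10340 (green) and AT2G24600 (purple) with 95% intervals of the limma fit, for 46T minus WT, for dehydrated minus control and for the change of the line difference with dehydration. The interval of AT2G24600 includes 0 for the line difference in control seedlings and that of AT1G10340 includes 0 for the change of the line difference.

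The order of the 4 groups therefore differed between the genes. AT1G10340 was highest in dehydrated 46T, then in control 46T, then in dehydrated WT and lowest in control WT. Its ranges overlapped only between dehydrated and control WT. AT2G24600 was highest in dehydrated 46T, then in dehydrated WT, then in control 46T and lowest in control WT. Its ranges overlapped only between control 46T and control WT, and the gap between the means of dehydrated WT and control 46T was 2.38.

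For AT2G24600 the line difference was 0.93 ± 0.23 larger after dehydration than in control seedlings (log2, SE; 95% interval 0.43 to 1.42), or 1.06 ± 0.20 larger without WT control replicate 1. For AT1G10340 this change was 0.23 ± 0.33 (95% interval -0.47 to 0.93), or 0.48 ± 0.27 without WT control replicate 1. These intervals belong to each gene alone, and they are made of the contrasts that picked the genes. Over all 14495 probe sets, limma called 0 changes of the line difference (0.0%), and only 291 (2.01%) had an unadjusted p below 0.05. The larger line difference of AT2G24600 after dehydration is a description of these 12 arrays.

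The log2 values of both genes correlated with r = 0.56 over the 12 arrays (0.46 to 0.65 with any 1 array left out), which share the 4 groups and their treatments. Correlations were compared among genes with a tested probe set assigned to them alone, so the other tested probe sets could not be picked. Of 7801 such other genes, 1115 correlated more closely with AT1G10340 than AT2G24600 did. With AT2G24600, 1057 correlated more closely than AT1G10340 did. The deviations from the group means correlated with r = 0.37, or -0.12 without WT control replicate 1, on which both genes had their lowest value.

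Among the same genes, those most like AT1G10340 in log2 values were AT1G66880 (r = 0.97 over 12 arrays), AT3G48650 (0.95), AT1G74440 (0.94), AT4G02120 (0.92), AT4G01700 (0.92) and AT5G05570 (0.91). Since they were picked for this likeness on the same arrays, their line differences follow from the choice. All 6 were higher in 46T in both conditions, by 0.45 to 4.38 in dehydrated and by 0.62 to 3.50 in control seedlings. Both upper values are those of AT3G48650, whose log2 signal averaged 6.07. The limit for testing was at least 6.13 on every array, and every WT array lay below that gene's mean. AT3G48650 therefore passed the limit through 46T arrays alone, and its line differences rest on dim WT signals. AT1G66880, with the highest correlation, was 1.42 higher in dehydrated 46T and 1.66 higher in control 46T than in WT, and AT1G74440 was 1.63 and 1.44 higher, in the same order. The values of AT3G48650 spanned the widest range of the 6, from -3.94 to 3.88 about its mean.

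The genes most like AT2G24600, picked in the same way, were PTI1-4 (r = 0.99 over 12 arrays), a protein kinase gene whose name stands for Pto-interacting, AT1G55450 (0.98), AT3G46930 (0.98), AT2G40270 (0.98), AT5G58120 (0.98) and AT5G19240 (0.98). As follows from that choice, they were 1.28 to 3.51 higher in dehydrated than in control seedlings, averaged over the lines. The choice likewise favoured genes that, as AT2G24600, were more elevated in 46T after dehydration than in control seedlings. Each of the 6 was so, by 0.30 to 0.89 in dehydrated and by 0.03 to 0.32 in control seedlings. AT5G58120 had the widest line difference of these after dehydration, at 0.89 in dehydrated and 0.31 in control seedlings.

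**Figure D4:**
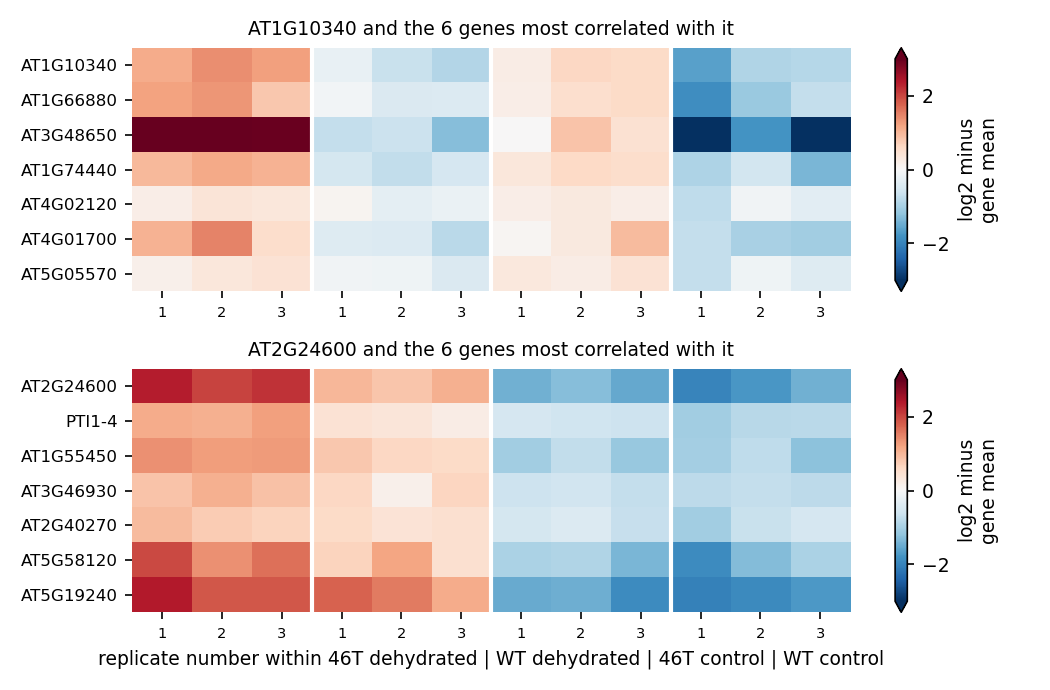
Log2 signal minus the gene's mean over the 12 arrays, for AT1G10340 (top panel) and AT2G24600 (bottom panel), each above the 6 genes most correlated with it; columns are arrays in the order 46T dehydrated, WT dehydrated, 46T control and WT control, and colours saturate at 3 in either direction. The upper panel splits by line within each condition, and the lower panel splits by dehydration first.

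Over the deviations from the group means, which leave out line and treatment, other genes came first. AT4G15810 was most like AT1G10340 (r = 0.96), followed by AT5G05140, AT2G23450, AT4G16650, AT5G43910 and AT1G68600 (0.93 to 0.91). AT1G33590 was most like AT2G24600 (r = 0.97, or 0.80 after quantile normalization), followed by AT1G76240, PYRB, AT1G33600, AT3G61550 and AT1G24610 (0.95 to 0.93). None of these 12 was among the 12 named above.

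A list of 41 further Arabidopsis loci taken, from general knowledge, to encode ankyrin repeat proteins of the same membrane-span group set the pair beside its family. Of these, 23 had a probe set that the platform annotation assigns to them alone, and 9 were bright enough to test. The annotation leaves 8730 of the 22810 probe sets unnamed, so loci without an assigned probe set may still be on the array. The lists here therefore cover only a part of their genes. After dehydration, averaged over the lines, 2 of 9 were called higher and 0 lower, beside 12.2% and 12.4% of all tested probe sets, with a median difference of 0.00 against -0.05. Both that were called passed the limit for testing mainly through their dehydrated arrays, AT1G14480 on 6 of 6 dehydrated and 0 of 6 control arrays and AT4G11000 on 6 of 6 and 2 of 6, so this count supports nothing about the family. Their p-values are therefore from the fit with no limit on low signals. AT1G14480 rose by 3.07 ± 0.16 there (SE; limma adjusted p = 1.2e-08). Its log2 signal averaged 9.17 ± 0.31 in dehydrated and 6.21 ± 0.19 in control 46T, and 8.97 ± 0.04 in dehydrated and 5.80 ± 0.34 in control WT (SD, n = 3 each). AT4G11000 rose by 1.496 ± 0.267 (SE; limma adjusted p = 0.00157). The other 7, among them ANK1 at -0.37 ± 0.20, lay between -0.54 and 0.26, and none of them passed, though ANK1 passed in 2 of 21 alternatives, 1 of them without WT control replicate 1 (-0.49).

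In the line comparisons 0 of these 9 genes were called in either condition, beside 0.152% of all tested probe sets in dehydrated and 0.359% in control seedlings, shares at which 0 of 9 shows nothing about the family. Their differences were positive for 8 of 9 after dehydration (median 0.47) and for 8 of 9 in control seedlings (median 0.42), against 54.9% and 58.5% of all tested probe sets. The widest were AT3G13950, at 1.20 ± 0.37 in dehydrated and 1.18 ± 0.37 in control seedlings, and AT4G11000, at 0.95 ± 0.37 and 1.27 ± 0.37 in the same order (SE). Both passed the limit for testing on more 46T than WT arrays. AT3G13950 did so on 2 of 3 46T and 0 of 3 WT dehydrated arrays, and on 3 of 3 and 1 of 3 control arrays. AT4G11000 did so on 3 of 3 dehydrated arrays of each line, and on 2 of 3 46T and 0 of 3 WT control arrays. Neither these differences nor the count of 8 of 9 therefore supports anything about the family. ANK1 was at 0.74 ± 0.28 and 0.76 ± 0.28. Without WT control replicate 1 the control differences were 1.34 for AT3G13950, 1.096 for AT4G11000 and 0.52 for ANK1. AT4G11000 was called in control seedlings without WT control replicate 2 (1.60) and with array weights (1.52), ANK1 likewise (0.98 and 0.67), AT3G13950 with array weights in both conditions, and AT1G14480 and AT2G01680 with array weights in control seedlings. No other alternative called a line difference of these genes in either condition. Beside AT2G24600, with an averaged dehydration rise of 3.15 and a line difference of 1.24 ± 0.16 after dehydration, AT1G14480 had a rise of 3.07 and a line difference of 0.20 ± 0.22, and the difference between the genes was not tested.

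**Figure D5:**
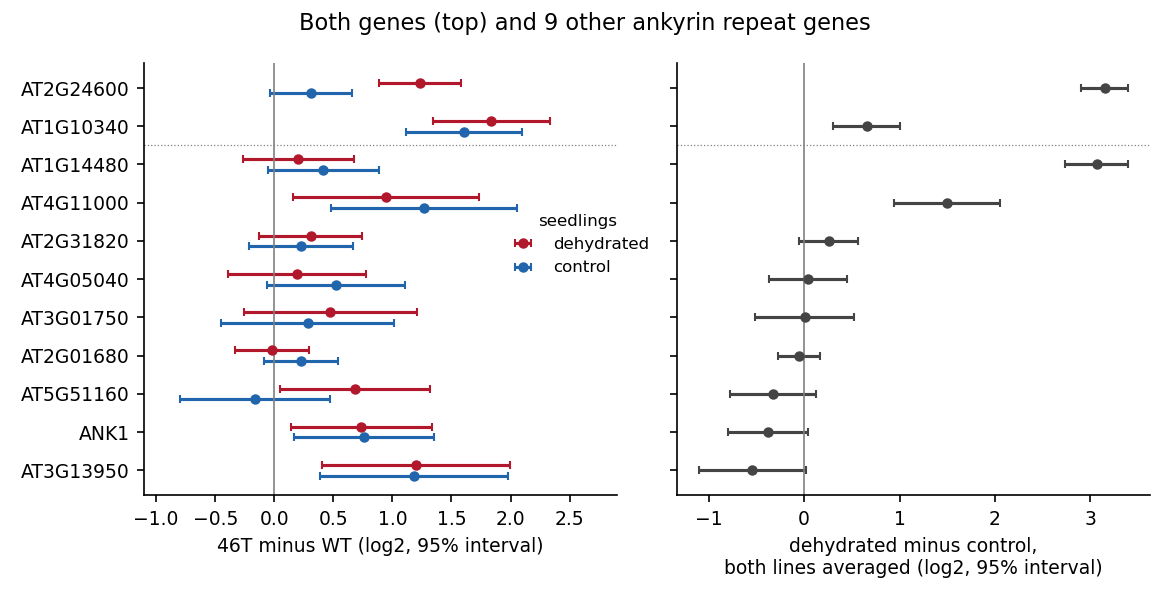
Log2 differences with 95% intervals of the limma fit for AT2G24600 and AT1G10340 (above the dotted line) and the 9 other tested ankyrin repeat genes, for 46T minus WT in dehydrated (red) and control (blue) seedlings on the left and for dehydrated minus control, averaged over both lines, on the right. On the right, AT2G24600 (3.15) and AT1G14480 (3.07) lie far from 0. On the left AT1G10340 has the widest line differences of the 11 genes in both conditions, but the pair was chosen by these differences and the 9 others were not.

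A further list held 19 other ankyrin repeat loci. The annotation assigns a probe set of its own to 1 of them, which was too dim to test. Of 35 listed salicylic acid and defence loci, 3 had such a probe set, and all 3 were tested. Of these, WRKY53, a transcription factor of the same WRKY group as WRKY46, rose with dehydration, by 5.24 ± 0.20 averaged over the lines in the fit with no limit on low signals (SE; limma adjusted p = 3.8e-10). It lay above that limit on 6 of 6 dehydrated and 0 of 6 control arrays. SAG101, a partner of the defence regulator EDS1, was 0.45 ± 0.18 higher and AT5G52810 0.02 ± 0.16 higher, and neither passed. None of the 3 was called between the lines in either condition, beside 0.152% of all tested probe sets in dehydrated and 0.359% in control seedlings. At these shares the count shows nothing about defence genes. AT5G52810 was 0.74 ± 0.23 higher in dehydrated and 0.04 ± 0.23 higher in control 46T, and it was called after dehydration in 1 of 22 alternatives, with array weights. SAG101 was 0.42 ± 0.25 higher in dehydrated and 0.69 ± 0.25 higher in control 46T.

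Neighbouring genes on the chromosomes were examined too. None of the 4 was called between the lines, beside 0.152% of all tested probe sets in dehydrated and 0.359% in control seedlings. At these shares the count shows nothing about the neighbours. AT1G10330 and AT1G10350 stand directly beside AT1G10340 in RefSeq's gene order. Their line differences were 0.05 ± 0.28 and 0.28 ± 0.18 in dehydrated seedlings and -0.02 ± 0.28 and 0.07 ± 0.18 in control seedlings (SE). For AT2G24600, the nearest neighbours with a tested probe set assigned to them alone were AT2G24580, 3 genes away, and ATCSLC08. The latter is a cellulose synthase-like gene 6 genes away on the other side. Whether unnamed probe sets measure nearer genes was not examined. The line differences of AT2G24580 and ATCSLC08 were -0.36 ± 0.18 and 0.14 ± 0.19 in dehydrated seedlings and -0.21 ± 0.18 and -0.11 ± 0.19 in control seedlings. In the averaged dehydration comparison the 4 neighbours lay between -0.20 and 0.23 and none passed, though AT2G24580 did in 1 of 22 alternatives. Of all tested probe sets, 12.2% were called higher and 12.4% lower there.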

How the data were processed

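The deposited table holds 1 value per probe set and array. Per the submitters' processing notes, MAS5 gave the signals; its version is not stated there. The authors' deposited values are log2 signals: on the linear scale their mean, trimmed by 2% at each end, was 500.0 to 500.1 on every array, so they were not normalized again. MAS5 subtracts mismatch signal, so low signals vary more. The table was fitted in R 4.3.3 with limma 3.58.1 (4 group means, eBayes with an intensity trend) over the 14495 probe sets above the 40th percentile on at least 3 arrays, control probe sets left out. The labels call the arrays biological replicates and do not say which plants were pooled. Groups came from the sample titles. Names came from the platform annotation, where 13513 probe sets name 1 gene, and RefSeq's TAIR10.1 table, which matched 13436. Probe sets not matched to a single gene in this way were left out of the lists, the correlations and the neighbours. The genes, lists and tests were chosen with earlier results of these data known. Named genes were the pair, the 6 most correlated with each by each measure, the nearest tested neighbours, called list members and, where none was called, those with the largest differences. The fit was tested on simulated data. Alternatives covered normalization, low signals, filters, array weights, the replicate block, the poly-A level and each array left out. Same-numbered arrays' deviations from their group means correlated between -0.12 and 0.35, so the replicate numbers were not taken as pairs. The number of arrays limits the precision.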

Additional observations from a re-analysis of the deposited data

How the results depend on the processing

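The line differences of AT1G10340 and AT2G24600, their averaged dehydration rises and the changes of their line differences kept their direction in all the alternatives run, and the averaged dehydration rise of both kept its call. With 1 array left out, the line difference of AT1G10340 ranged from 1.69 to 2.03 in dehydrated and from 1.36 to 1.74 in control seedlings, its averaged dehydration rise from 0.53 to 0.73 and the change of its line difference from 0.09 to 0.48. Those of AT2G24600 ranged from 1.15 to 1.31, from 0.18 to 0.45, from 3.08 to 3.22 and from 0.78 to 1.06. With array weights, whose estimation stopped before full convergence, the change of the line difference was 0.57 for AT1G10340 and 1.11 for AT2G24600 (1.13 after quantile normalization), and the control line difference of AT2G24600 was 0.076 (0.15 after quantile normalization and 0.19 after median centring, against 0.31). The correlation of both genes' deviations reversed to -0.12 without WT control replicate 1. With the replicate block the line differences of AT1G10340 were 1.84 and 1.61 and the averaged rises 0.66 and 3.15. They equal the fit without it by construction, since each replicate number occurs once in each group. The block changed no call of either gene.

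The 22 probe sets called between the lines after dehydration became 36 after quantile normalization, 37 with the floor of 5, 43 with the pseudocount of 32, 206 with these groups alone and 432 with array weights, and 13 to 176 with 1 array left out (176 and 87 without WT control replicates 1 and 2, 14 and 13 without 46T dehydrated replicates 1 and 2, and 13 without WT dehydrated replicate 3). The 52 called in control seedlings (38 higher, 14 lower in 46T) became 71 after quantile normalization (38 higher, 33 lower), 81 after median centring (40 higher, 41 lower), 32 under the stricter filter, 14 with these groups alone, 33 with the poly-A level and 2926 with array weights, and 13 to 1640 with 1 array left out (1640 without WT control replicate 2, and 28, 13 and 14 without 46T control replicates 1, 2 and 3). Median centring moved the median control difference of all probe sets from 0.07 to -0.05. The 3574 called for averaged dehydration became 5726 with array weights and 2647 to 4803 with 1 array left out. The cause of these shifts was not tested. Changes of the line difference were called for 1 probe set with array weights and 1 with the poly-A level. Fits on the groups of 1 comparison alone give no value for averaged dehydration or for the change of the line difference.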
